A study of Mus musculus with 8 samples.

Results

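Oligodendrocyte precursor cells (OPC) were examined among nuclei of the cerebral cortex of mice at postnatal day 25. Nuclei entered the count if 500 or more genes were detected in them and mitochondrial genes made up no more than 2% of their UMIs (unique molecular identifiers, each marking 1 captured RNA molecule). OPC were selected on their own counts of marker genes, with 2 or more UMIs of Pdgfra plus Cspg4 and 3 or more of Lhfpl3 plus Tnr. Such a nucleus could hold at most 2 UMIs of Enpp6, Gpr17 and Bmp4 (genes of precursors committed to differentiate), 1 of Slc17a7, Gad1 and Gad2 (neurons), 1 of Mog and Mag (myelin) and 2 of Inpp5d, Flt1 and Col1a2 (microglia and vessels). By this rule 1912 of 77185 kept nuclei (2.48%) were OPC, and their UMIs were summed within each library.

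OPC are the dividing glia that give rise to the myelinating oligodendrocytes of the brain. They divide in response to platelet-derived growth factor, which they sense through the receptor Pdgfra, and they carry the proteoglycan Cspg4, known as NG2. In the juvenile cortex they receive synapses from neurons and carry receptors for glutamate and GABA. Cells leaving the pool lose Pdgfra, pass through a short committed stage and then turn on the genes of myelin.

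All 8 animals were C57BL/6J mice of the same age, 4 wild type (WT) and 4 heterozygous for Chd8 (Chd8+/-, Chd8het below), and each genotype was represented by 2 male and 2 female animals, sequenced as 1 library each. Chd8 encodes a chromatin remodeller of the CHD family. The medial cortex was removed, and the frozen tissue was processed individually. Replicate 1 of each group of sex and genotype had a single-indexed library and replicate 2 a dual-indexed one. Index type is thus spread evenly over the 4 groups. Which Chd8 allele the mice carried is not given in the sources used here, and no treatment or transgene was named.

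Libraries held 9140 to 14280 barcodes and 69.5 to 98.1 M UMIs (M for the prefix mega), of which 7799 to 10804 nuclei per library were kept. Values per library are given below in the order male 1, male 2, female 1, female 2. OPC numbered 240, 182, 262 and 231 in WT and 278, 244, 275 and 200 in Chd8het. The summed OPC counts were 599176 to 940268 UMIs per library, with a median of 2611.5 to 3702 UMIs and 1451 to 1844 genes per nucleus. Scrublet marked 104 OPC (5.44%) as doublets, and these were kept in the main values and left out in an alternative. Of the kept barcodes, 691 occurred in more than 1 library, 16 to 34 for each pair of libraries. Of these, 38 were an OPC in at least 1 library and 1 was an OPC in more than 1.

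Levels by cell class are given in CPM, counts per M UMIs of the summed class, as mean ± SD over the 8 libraries. The 6 marker genes were examined first. Pdgfra was at 933 ± 149 CPM in OPC and 3.61 ± 1.94 CPM in mature oligodendrocytes. Cspg4 was at 318 ± 31.1 CPM in OPC and 4.51 ± 1.596 CPM in mature oligodendrocytes. Both genes, with Lhfpl3 and Tnr, chose the nuclei, so their levels describe the rule. Vcan, the matrix proteoglycan versican, and Cacng4, an auxiliary subunit of AMPA receptors, took no part in the rule. Vcan was at 976 ± 162 CPM in OPC, 607 ± 111 in committed precursors, 8.61 ± 2.54 in mature oligodendrocytes, 35.2 ± 11.7 in astrocytes and 10.7 ± 2.11 in neurons. Cacng4 was at 638 ± 125, 140 ± 28.1, 4.65 ± 3.84, 32.3 ± 10.7 and 7.94 ± 4.22 CPM in the same order of classes. Both were higher in OPC than in each of the other 4 classes in all 8 libraries, so the label holds for the markers outside the rule. A Pdgfra UMI was present in 1869 OPC, a Cspg4 UMI in 1276 and both in 1233.

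**Figure D1:**
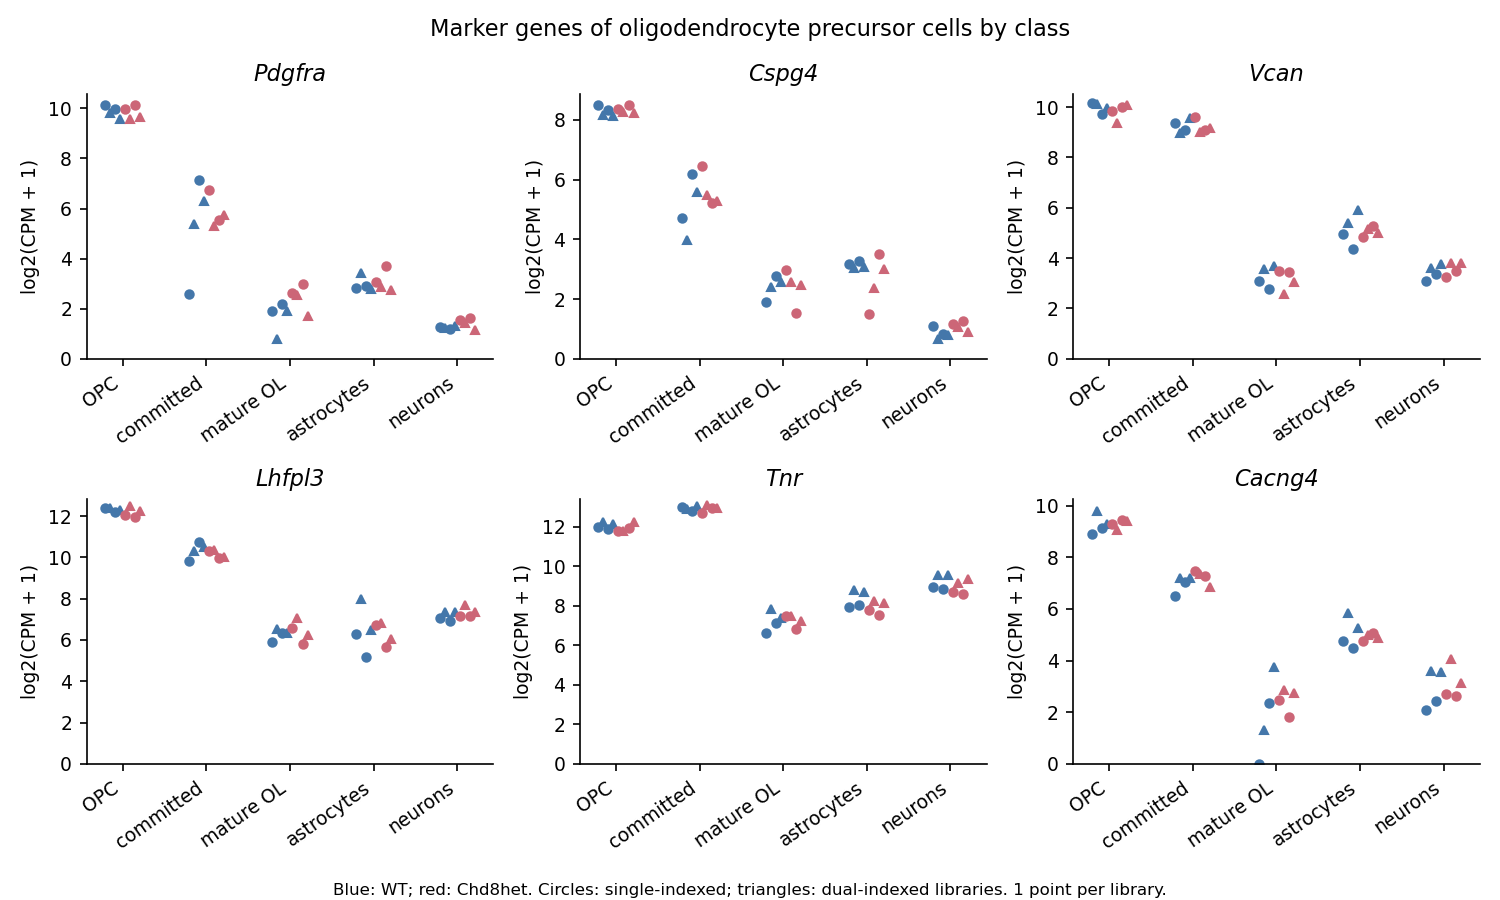
Level of the 6 marker genes in 5 classes of nuclei, as log2(CPM + 1), with 1 point for each of the 8 libraries. All OPC points for Vcan and Cacng4, which were not part of the rule, lie above the points of the same library in the other 4 classes, while Tnr is higher in committed precursors than in OPC.

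The classes for comparison were set by rules of the same kind over the same kept nuclei. They held 447 committed precursors, 3132 mature oligodendrocytes, 1328 astrocytes and 23468 neurons. All comparisons between classes below are descriptions without a test, since the classes were cut from the same counts. The edges of the OPC rule were populated. At the lower limit of 2 UMIs of Pdgfra plus Cspg4 lay 418 members, and 653 nuclei with 1 such UMI met every other condition. At the limit of 2 committed-stage UMIs lay 203 members, and 60 nuclei lay just outside with 3. The limit on Lhfpl3 plus Tnr mattered little, with 7 members at 3 UMIs and 8 nuclei outside at 2. The limit on neuronal UMIs left out 468 nuclei.

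Markers of other classes were also counted in the OPC sums, and their part in later results was not tested. The sums take all listed markers, also those whose counts chose the classes. These are the genes that the OPC rule limits, and Aqp4 and Gja1, which chose the astrocytes. Part of each contrast that holds such genes was thus set by the rules. The 8 mature oligodendrocyte markers, Mog and Mag among them, summed to 302 to 439 CPM in WT and 314 to 601 CPM in Chd8het OPC, against 17980 CPM in mature oligodendrocytes. The 6 outside the rule summed to 283.7 to 411.5 CPM in WT and 299.8 to 575.7 CPM in Chd8het OPC, against 15690 CPM in mature oligodendrocytes. The 8 astrocyte markers summed to 1008 to 1375 CPM in WT and 1186 to 1384 CPM in Chd8het OPC, against 11900 CPM in astrocytes, and Gfap was not detected in every library. The 7 excitatory neuron markers summed to 571 to 721 CPM in WT and 533 to 901 CPM in Chd8het OPC, against 1634 CPM in neurons. The 9 interneuron markers summed to 4423 to 5314 CPM in WT and 3627 to 5063 CPM in Chd8het OPC, against 2295 CPM in neurons. Most of it was Erbb4, which OPC held at 2868 ± 287 CPM. The 6 microglial markers summed to 179 to 228 CPM in WT and 219 to 294 CPM in Chd8het OPC, against 228.5 CPM in all other kept nuclei. The 6 mural markers summed to 4.61 to 6.68 CPM in WT and 9.57 to 18.96 CPM in Chd8het OPC, without overlap, while the sums of the other classes overlapped. These mural sums are low, and Rgs5, Kcnj8, Abcc9, Acta2 and Notch3 were not detected in every library. Of all single genes tested, 2.25% had no overlap between genotypes. Endothelial markers summed to at most 9.48 CPM and fibroblast markers to at most 33.4 CPM in any OPC library, the latter in WT male 2, with most of their genes at 0 in some libraries. The mitochondrial share of OPC UMIs was 0.125% to 0.476%.

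The genes that marked OPC most strongly against all other kept nuclei were ranked by the ratio of mean CPM, among genes of at least 20 CPM in every library and outside the rule. Rlbp1, a retinaldehyde-binding protein (chromosome 7, 79374870 to 79387048, GRCm38, minus strand), led with 99.1 ± 21.02 CPM in OPC and 1.53 CPM in the rest, a ratio of 64.8. The Rik genes followed, 6030407O03Rik with a ratio of 60.5 and C430049B03Rik with 58.0. Calcrl, a receptor for calcitonin-family peptides, had 219 ± 35.6 CPM and a ratio of 57.0. The kinase gene Stk32a had a ratio of 55.2, and C1ql1, a secreted C1q-like protein, 52.9. S100a2 (50.1), Vcan (48.9), Cacng4 (47.4), the sialidase gene Neu4 (45.7), Tmem255b (43.3) and the matrix gene Matn4 (41.7) came next. The rest pools all other classes, so the ratio does not set a gene beside committed precursors. Neu4 is also on the list of differentiation genes used below. All 16 members of that list outside the rule were lower in OPC than in committed precursors in all 8 libraries. Gm42948 (41.0) is antisense within Lhfpl3, and where counting ignores strand its reads cannot be told from those of Lhfpl3. The last 7 of the 20 were the topoisomerase gene Top2a (39.4), the signalling adaptor gene Shc4 (37.8), Afap1l2 (37.1), the potassium channel gene Kcnh8 (36.3), Emid1 (34.2), the scaffold gene Caskin2 (33.0) and Inava (32.2). Of the Top2a UMIs in OPC, 458 lay in the 99 nuclei with at least 5 UMIs of cell cycle genes, a list that includes Top2a. The other 1813 OPC held 24, at 3.74 ± 1.99 CPM, against 1.84 CPM in the rest. Top2a UMIs helped to choose the 99, so its low level in the others is in part set by the division. As a description, the Top2a ratio rested mostly on these 99 nuclei.

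The 2 promoters below are shown because one belongs to the receptor that defines the class and the other to the gene with the largest ratio outside the rule. Both are from RefSeq on GRCm38.p6, 250 bases before to 50 after the start of the gene, 5′ to 3′ on the strand of the gene. Pdgfra lies at chr5:75152001-75152300 on the plus strand and Rlbp1 at chr7:79386978-79387277 on the minus strand. Capitals mark the Sox core ACAAAG, here read on the opposite strand.
Pdgfra: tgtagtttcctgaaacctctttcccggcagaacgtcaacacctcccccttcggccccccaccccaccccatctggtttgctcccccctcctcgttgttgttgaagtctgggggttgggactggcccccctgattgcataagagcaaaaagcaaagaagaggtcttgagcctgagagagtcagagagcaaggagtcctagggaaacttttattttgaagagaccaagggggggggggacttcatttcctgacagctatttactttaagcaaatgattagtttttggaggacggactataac
Rlbp1: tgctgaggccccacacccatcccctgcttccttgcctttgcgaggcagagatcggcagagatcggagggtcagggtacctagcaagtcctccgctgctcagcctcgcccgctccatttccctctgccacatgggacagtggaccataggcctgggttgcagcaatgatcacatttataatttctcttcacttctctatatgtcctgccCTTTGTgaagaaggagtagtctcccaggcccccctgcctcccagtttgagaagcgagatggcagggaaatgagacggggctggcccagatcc

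Promoters of 17 of 24 genes asked for (the rule's 4 OPC genes and the 20 ranked ones) were in the RefSeq table. The motif ACAAAG, searched on both strands, was in 2 of the 17 (11.8%), Tnr and Rlbp1, and in 18.7% of all 27025 promoters of that length. The E-box CAGCTG, which reads the same on both strands, was in 2 of the 17 (11.8%), Lhfpl3 and 6030407O03Rik, and in 16.1% of all promoters. Neither share was above that of all promoters in these windows.

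The fixed gene lists were then read by role, counting members that were higher or lower in OPC in all 8 libraries and leaving out genes of the OPC rule. The list counts take every measured member, whereas the shares over all genes cover the 9419 that passed the count filter in OPC, so they are not on the same footing. Of the lists, 14 of 21 cholesterol, 16 of 22 cell cycle and 16 of 25 Notch and Wnt genes passed. Over the 9419 genes the rule gave 11.7% higher and 7.56% lower than in committed precursors. It gave 28.9% higher and 16.2% lower than in mature oligodendrocytes, 17.4% higher and 12.3% lower than in astrocytes, and 34.3% higher and 17.6% lower than in neurons.

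**Figure D2:**
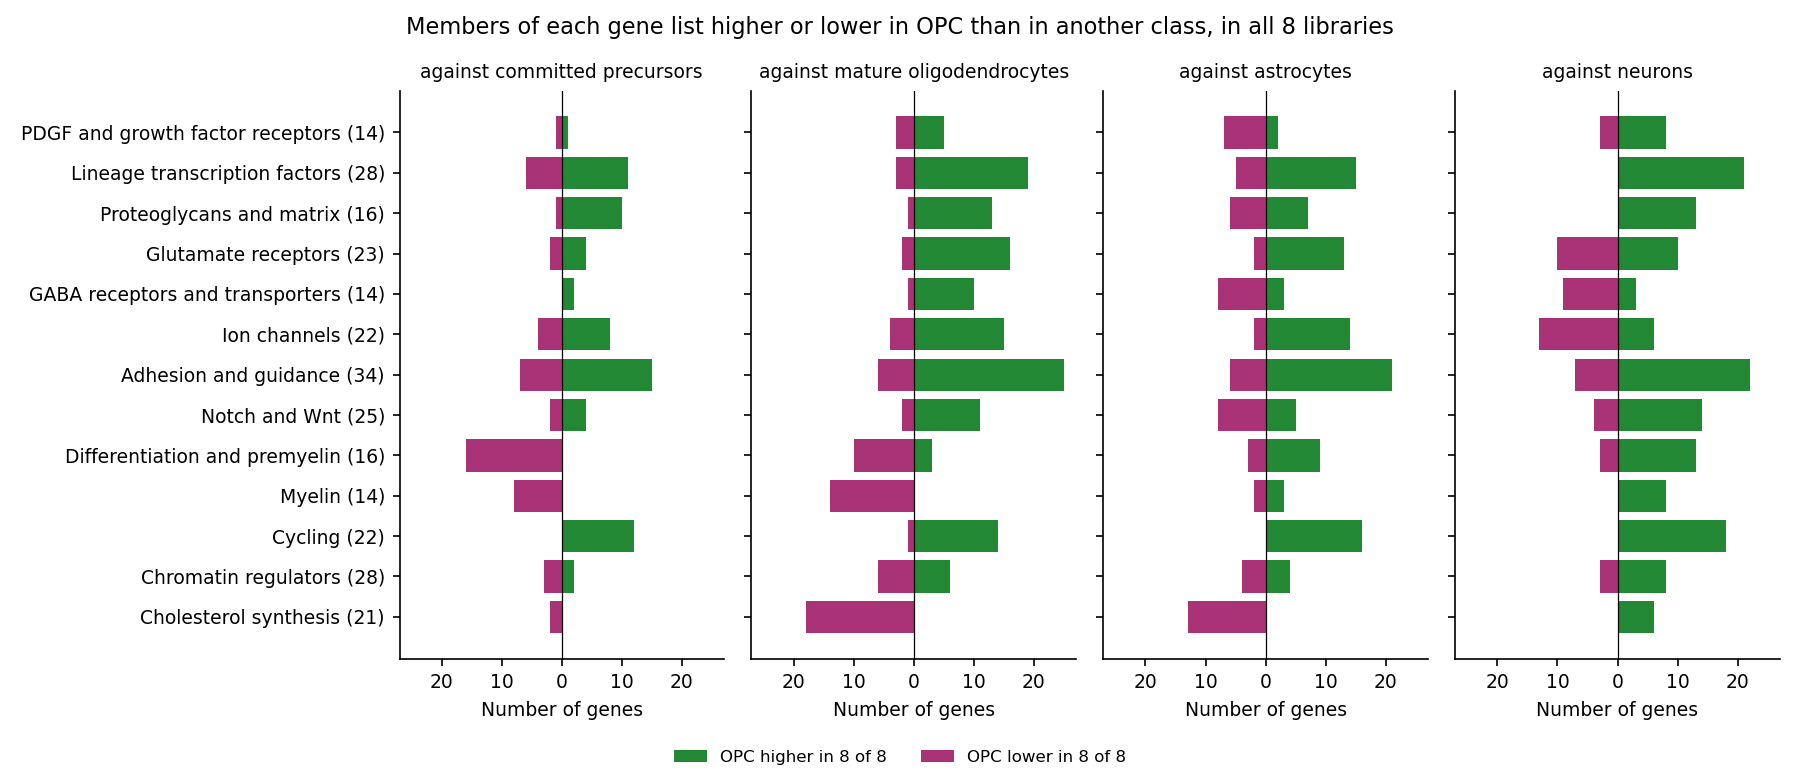
Number of members of each list (members outside the rule in brackets) that were higher or lower in OPC than in another class in all 8 libraries. All 16 members of the differentiation list were lower in OPC than in committed precursors and all 14 of the myelin list lower than in mature oligodendrocytes.

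Of 14 growth factor receptors besides Pdgfra, 1 was higher and 1 lower in OPC than in committed precursors, 5 and 3 against mature oligodendrocytes, 2 and 7 against astrocytes, and 8 and 3 against neurons. Fgfr1, an FGF receptor, was at 48.2 ± 11.8 CPM in OPC and 11.3 ± 2.90 in mature oligodendrocytes, whereas Fgfr2 was at 738 ± 106 in OPC and 2377 ± 343 in mature oligodendrocytes. Erbb3, a neuregulin receptor of the lineage, was at 22.4 ± 7.97 CPM in OPC and 90.4 ± 11.98 in mature oligodendrocytes. Ntrk2, the receptor of BDNF, was at 580 ± 148 CPM in OPC, above committed precursors (353 ± 138) and below astrocytes (1190 ± 239) in all 8 libraries. Egfr was at 11.8 ± 8.93 CPM in OPC and 344 ± 56.4 in astrocytes. So the FGF and EGF receptors stood at other levels in OPC than in astrocytes, which held more of Fgfr1, Fgfr2, Fgfr3 and Egfr in all 8 libraries.

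Of 28 lineage transcription factors, 11 were higher and 6 lower in OPC than in committed precursors, 19 and 3 against mature oligodendrocytes, 15 and 5 against astrocytes, and 21 and 0 against neurons. Olig2, which specifies the lineage, was at 53.9 ± 11.6 CPM in OPC, 20.1 ± 2.76 in mature oligodendrocytes and 0.572 ± 0.142 in neurons. Sox10, which drives the lineage to its end, was at 227 ± 67.2 CPM in OPC and below committed precursors (305 ± 107) in all 8 libraries. Sox5, which holds back differentiation, was at 1169 ± 120 CPM in OPC and 565 ± 66.4 in committed precursors. Sox6, its partner, was in contrast lower in OPC (1649 ± 171) than in committed precursors (2119 ± 270). Zeb1 and Zeb2, related zinc finger repressors, stood at opposite ends. Zeb1 was at 1931 ± 158 CPM in OPC, 596 ± 150 in committed precursors and 144 ± 52.8 in mature oligodendrocytes. Zeb2, which promotes myelination, was at 674 ± 104, 2128 ± 228 and 2114 ± 233 CPM in the same classes. Myt1, a zinc finger gene of the lineage, was at 276 ± 24.0 CPM in OPC, 64.4 ± 11.7 in committed precursors and 3.90 ± 2.23 in mature oligodendrocytes. Hes5, an effector of Notch that represses differentiation, was at 45.1 ± 8.81 CPM in OPC and 8.80 ± 4.90 in committed precursors. The ETS factors Etv1, Etv4 and Etv5 and the RNA-binding gene Zfp36l1 were higher in OPC than in committed precursors and mature oligodendrocytes in all 8 libraries, Zfp36l1 at 104 ± 20.2 against 16.3 ± 12.99 and 3.11 ± 1.12 CPM. Nkx2-2, which prepares differentiation, was at 31.2 ± 8.48 CPM in OPC and 85.0 ± 22.6 in committed precursors.

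Of 16 proteoglycan and matrix genes outside the rule, 10 were higher and 1 lower than in committed precursors, 13 and 1 against mature oligodendrocytes, 7 and 6 against astrocytes, and 13 and 0 against neurons. The receptor phosphatase gene Ptprz1, itself a chondroitin sulfate proteoglycan, was at 2469 ± 190 CPM in OPC, 699 ± 147 in committed precursors and 52.0 ± 14.4 in mature oligodendrocytes. Enzymes that build the sugar chains were among them. Xylt1, which starts a chain, was at 2011 ± 175 CPM in OPC and 651 ± 86.1 in committed precursors, and Chst11, a chondroitin sulfotransferase, at 532 ± 60.6 and 137 ± 25.6. Csgalnact1, which starts chondroitin synthesis on the linker, was the member lower in OPC (181 ± 29.7) than in committed precursors (756 ± 52.7). Tnr, part of the rule, was at 4132 ± 549 CPM in OPC and 7911 ± 717 in committed precursors, higher where Pdgfra was lower. Gpc5, a glypican, was at 4115 ± 371 CPM in OPC and 8764 ± 1188 in astrocytes.

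Of 23 glutamate receptor genes, 4 were higher and 2 lower than in committed precursors, 16 and 2 against mature oligodendrocytes, 13 and 2 against astrocytes, and 10 and 10 against neurons. The AMPA subunit gene Gria2, whose product limits calcium entry, was at 2219 ± 372 CPM in OPC, above neurons (1889 ± 248) and mature oligodendrocytes (577 ± 76.4) in all 8 libraries. Grin3a, an NMDA receptor subunit, was at 448 ± 45.3 CPM in OPC, 133 ± 36.2 in committed precursors, 17.7 ± 5.69 in mature oligodendrocytes and 71.1 ± 12.3 in neurons. The other NMDA subunit genes Grin1, Grin2a and Grin2b were below neurons in all 8 libraries, Grin2a at 479.9 ± 101 CPM against 2068 ± 325. The kainate subunit gene Grik1 was at 366 ± 56.8 CPM in OPC and 80.2 ± 39.3 in committed precursors. Grm5, a metabotropic receptor, was at 917 ± 73.9 CPM in OPC and 530 ± 139 in astrocytes, whereas Grm3 was at 171 ± 38.0 and 1759 ± 513.

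Of 14 GABA genes, 2 were higher and 0 lower than in committed precursors, 10 and 1 against mature oligodendrocytes, 3 and 8 against astrocytes, and 3 and 9 against neurons. Gabrg1, a receptor subunit of glia, was at 35.02 ± 4.66 CPM in OPC and 13.3 ± 6.75 in committed precursors. Gabrb1 was at 476 ± 47.9 CPM in OPC and 2976 ± 254 in astrocytes. Of 22 ion channel genes, 8 were higher and 4 lower than in committed precursors, 15 and 4 against mature oligodendrocytes, 14 and 2 against astrocytes, and 6 and 13 against neurons. Kcnd2, an A-type potassium channel, was at 4057 ± 126 CPM in OPC, 1149 ± 186 in committed precursors, 480.3 ± 39.5 in mature oligodendrocytes and 2129 ± 229 in neurons. The sodium channel genes Scn1a, Scn2a and Scn8a were below neurons in all 8 libraries, whereas Scn3a was at 182 ± 18.4 CPM in OPC and 114 ± 7.27 in neurons. Kcna1, a channel of mature axons and glia, was at 36.9 ± 9.52 CPM in OPC and 451 ± 119 in mature oligodendrocytes.

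Of 34 adhesion and guidance genes, 15 were higher and 7 lower than in committed precursors, 25 and 6 against mature oligodendrocytes, 21 and 6 against astrocytes, and 22 and 7 against neurons. Lrrc4c, a netrin-G ligand, was at 6103 ± 455 CPM in OPC, 2768 ± 325 in committed precursors and 1092 ± 138 in mature oligodendrocytes. Megf11 was at 518 ± 67.7 CPM in OPC and 102 ± 26.98 in committed precursors. Dcc, the netrin receptor, was at 2105 ± 173 and 648 ± 226 CPM. Opcml was in contrast at 6645 ± 425 CPM in OPC and 12810 ± 984 in committed precursors, and the semaphorin gene Sema5a at 307 ± 33.1 and 992 ± 156. Ephb1 was lower in OPC (110 ± 28.6) than in each of the 4 classes in all 8 libraries.

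Of 25 Notch and Wnt genes, 4 were higher and 2 lower than in committed precursors, 11 and 2 against mature oligodendrocytes, 5 and 8 against astrocytes, and 14 and 4 against neurons. Notch1, the receptor, was at 48.6 ± 8.57 CPM in OPC and 18.5 ± 9.69 in committed precursors, and its ligand genes Dll1 and Dll3 were higher in OPC than in each of the 4 classes in all 8 libraries, Dll1 at 17.0 ± 3.57 CPM. Tcf7l2, a Wnt effector of the committed stage, was at 113 ± 27.4 CPM in OPC and 1244 ± 176 in committed precursors. Notum, a secreted Wnt inhibitor, had 0 UMIs in OPC of all 8 libraries.

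Outside the rule, all 16 differentiation genes were lower in OPC than in committed precursors, and 10 were lower and 3 higher than in mature oligodendrocytes. Against astrocytes 9 were higher and 3 lower, and against neurons 13 and 3. Bcas1 was at 401 ± 58.8 CPM in OPC and 3199 ± 363 in committed precursors, Fyn, a kinase of process outgrowth, at 282 ± 35.1 and 2629 ± 333, and Frmd4a at 385 ± 83.7 and 9404 ± 2125. Myrf, the master regulator of myelination, was at 8.57 ± 4.24 CPM in OPC, 105 ± 29.1 in committed precursors and 115 ± 23.8 in mature oligodendrocytes. Of 14 myelin genes outside the rule, 8 were lower than in committed precursors and all 14 lower than in mature oligodendrocytes, while 3 were higher and 2 lower than in astrocytes and 8 higher and 0 lower than in neurons. Mbp, a major myelin protein, was at 129 ± 47.8 CPM in OPC and 5755 ± 444 in mature oligodendrocytes, and St18 at 17.1 ± 8.06 and 3936 ± 275. Of 21 cholesterol synthesis genes, 2 were lower than in committed precursors, 18 lower than in mature oligodendrocytes and 13 lower than in astrocytes, and 0 were higher than in any of these classes. Against neurons 6 were higher and 0 lower.

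Of 28 chromatin regulators, 2 were higher and 3 lower than in committed precursors, 6 and 6 against mature oligodendrocytes, 4 and 4 against astrocytes, and 8 and 3 against neurons. Chd7, a remodeller of the same family as Chd8, was at 266 ± 31.3 CPM in OPC, 292 ± 65.2 in committed precursors, 237 ± 16.1 in mature oligodendrocytes and 8.94 ± 1.42 in neurons. Chd8 was at 80.9 ± 9.43 CPM in OPC, 85.9 ± 25.9 in committed precursors, 76.2 ± 13.4 in mature oligodendrocytes, 74.0 ± 9.25 in astrocytes and 78.6 ± 4.05 in neurons, and no 2 of these class means differed by more than the largest of the SDs. Chd3 was lower in OPC (135 ± 13.6) than in committed precursors (680.3 ± 131).

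Of 22 cell cycle genes, 12 were higher and 0 lower than in committed precursors, 14 and 1 against mature oligodendrocytes, 16 and 0 against astrocytes, and 18 and 0 against neurons. Top2a, a topoisomerase of dividing cells, was at 72.6 ± 32.1 CPM in OPC, 1.33 ± 1.85 in committed precursors and 1.68 ± 1.37 in mature oligodendrocytes. Mki67, the proliferation marker Ki-67, was at 22.7 ± 10.4, 2.14 ± 4.98 and 0.796 ± 0.943 CPM. Anln was the member lower in OPC (14.1 ± 7.92) than in mature oligodendrocytes (167 ± 28.1), and Diaph3 was at 91.8 ± 20.4 in OPC and 62.6 ± 13.2 in mature oligodendrocytes. Both genes had UMIs in mature oligodendrocytes, where Top2a and Mki67 were near 0, and a list without them was added after the data were seen.

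OPC were also divided by their UMIs of Enpp6, Gpr17 and Bmp4 into 1138 with 0, 571 with 1 and 203 with 2, with median depths of 2786, 3072 and 3524 UMIs. These divisions and the genes named here were chosen after values were seen, and deeper nuclei reach a higher count more easily. Of 10 differentiation genes outside the rule that were compared, 5 were higher with 2 such UMIs than with 0 in 6 or more of 8 libraries (Tcf7l2, Fyn, Sirt2, Frmd4a and 9630013A20Rik), 3 in 3 to 5 libraries, and Nfasc and Tmem163 in 2. Of all 9419 genes tested in OPC, 10.5% were higher in 6 or more libraries in this division. The myelin gene Mbp was higher in 3 of 8. Fyn was at 270.2 ± 37.7 CPM with 0 and 332 ± 80.1 CPM with 2 such UMIs and was higher in the latter in 6 of 8 libraries, and Sirt2, a deacetylase of the lineage, was at 103 ± 21.2 and 140.3 ± 56.3 CPM, higher in 7 of 8. Pdgfra, whose UMIs helped to choose OPC, was at 972 ± 168 and 807 ± 167 CPM, higher in 1 of 8, and Kcnd2 at 4164 ± 206 and 3608 ± 369, higher in 0 of 8. Opcml was at 6440 ± 424 and 7090 ± 861 CPM, higher in 7 of 8, and Chd3 at 128.8 ± 16.3 and 171 ± 58.9 CPM, higher in 6 of 8. Chd8 was at 84.8 ± 12.96 CPM with 0 and 109.9 ± 34.7 CPM with 2 such UMIs, higher in 8 of 8, but at 64.2 ± 14.1 CPM with 1, so its mean did not follow the count. Separately, 99 OPC with at least 5 UMIs of cell cycle genes were set beside the other 1813, with median depths of 3536 and 2908 UMIs. Of all genes tested, 15.4% were higher in the 99 in 6 or more of 8 libraries and 2.63% in 0. Pdgfra was at 1090 ± 263 CPM in these 99 and 923 ± 147 in the others, higher in 7 of 8 libraries. The other marker genes, Cspg4, Vcan, Lhfpl3, Tnr and Cacng4, were each higher in the 99 in only 2 of 8. Ezh2, a histone methyltransferase of dividing cells, was at 288 ± 143 and 49.6 ± 6.53 CPM, higher in 7 of 8. Of the same 10 differentiation genes, 0 were higher in the 99 in 6 or more libraries, 3 in 3 to 5 (Tmem163 in 5, 9630013A20Rik in 4 and Tcf7l2 in 3), 4 in 1 or 2, and 3 in 0. These last were Bcas1 (188 ± 58.6 and 414 ± 62.2 CPM), Sirt2 (43.6 ± 33.0 and 107 ± 11.1) and Neu4 (57.4 ± 18.6 and 115 ± 33.0).

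The share of OPC among kept nuclei was compared between genotypes, over libraries and by exact two-sided permutation tests of 4 against 4, whose smallest p is 0.0286. It was 2.66%, 2.33%, 2.47% and 2.22% in WT and 2.57%, 2.45%, 2.71% and 2.38% in Chd8het. The groups overlapped. The means were 2.42% ± 0.188 and 2.53% ± 0.144 (SD, n = 4 each, exact permutation p = 0.40, BH-adjusted over 4 measures 0.571), with Chd8het higher in 3 of 4 pairs. As a share of the oligodendrocyte lineage (OPC, committed and mature), OPC were 36.4%, 33.1%, 33.7% and 33.1% in WT and 35.3%, 36.9%, 37.3% and 32.2% in Chd8het. The means were 34.1% ± 1.58 and 35.4% ± 2.33 (SD, n = 4 each, exact permutation p = 0.429, adjusted 0.571). In summed counts, fewer cells of a kind and less RNA per cell cannot be told apart. These shares count nuclei that pass a UMI rule, so they depend on depth as well. The median depth per OPC was 2946 ± 330 UMIs in WT and 3077 ± 478 in Chd8het (SD, n = 4 each, exact permutation p = 0.657, adjusted 0.657).

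The share and the depth were also compared between index types, and after adjustment over the 4 measures neither passed 0.05. Both were at the smallest p the design allows, so an adjusted p under 0.05 would have needed another measure at that p too. The OPC share was 2.60% ± 0.104 with single indexes and 2.35% ± 0.0967 with dual indexes (SD, n = 4 each, exact permutation p = 0.0286, the smallest the design allows, adjusted 0.0571). The median depth was 2693 ± 83.9 and 3330.0 ± 269 UMIs (SD, n = 4 each, exact permutation p = 0.0286, adjusted 0.0571). The 4 values of each index type did not overlap in either measure. Within single-indexed libraries Chd8het minus WT was 0.0758 percentage points for the OPC share, and within dual-indexed ones 0.137.

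Cycling nuclei were counted after thinning each OPC to 2000 UMIs, which left out 332 shallower nuclei, as those with at least 2 UMIs of the 22-gene cell cycle list. They were 162 of 1580 OPC (10.3%, exact 95% binomial interval 8.80% to 11.9%, counting error only). The same count gave 16.001% in mature oligodendrocytes, which hold Anln and Diaph3, 4.49% in committed precursors, 3.08% in astrocytes and 1.16% in neurons, so the full list does not separate OPC from that background. Without Anln and Diaph3 the share was 110 of 1580 OPC (6.96%, interval 5.76% to 8.33%), against 0.709% in committed precursors, 1.51% in mature oligodendrocytes, 0.616% in astrocytes and 0.859% in neurons. On the full list the shares were 9.61%, 12.5%, 7.54% and 8.84% in WT and 12.1%, 10.0%, 12.04% and 9.74% in Chd8het. The groups overlapped, with means of 9.62% ± 2.10 and 10.98% ± 1.28 (SD, n = 4 each, exact permutation p = 0.314, adjusted 0.571). Chd8het minus WT was 3.52 percentage points with single indexes and -0.797 with dual indexes. On the list without the 2 genes the shares were 5.65%, 8.55%, 3.52% and 5.12% in WT and 8.25%, 7.27%, 7.87% and 9.74% in Chd8het, a difference of 2.58 points (exact permutation p = 0.114).

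**Figure D3:**
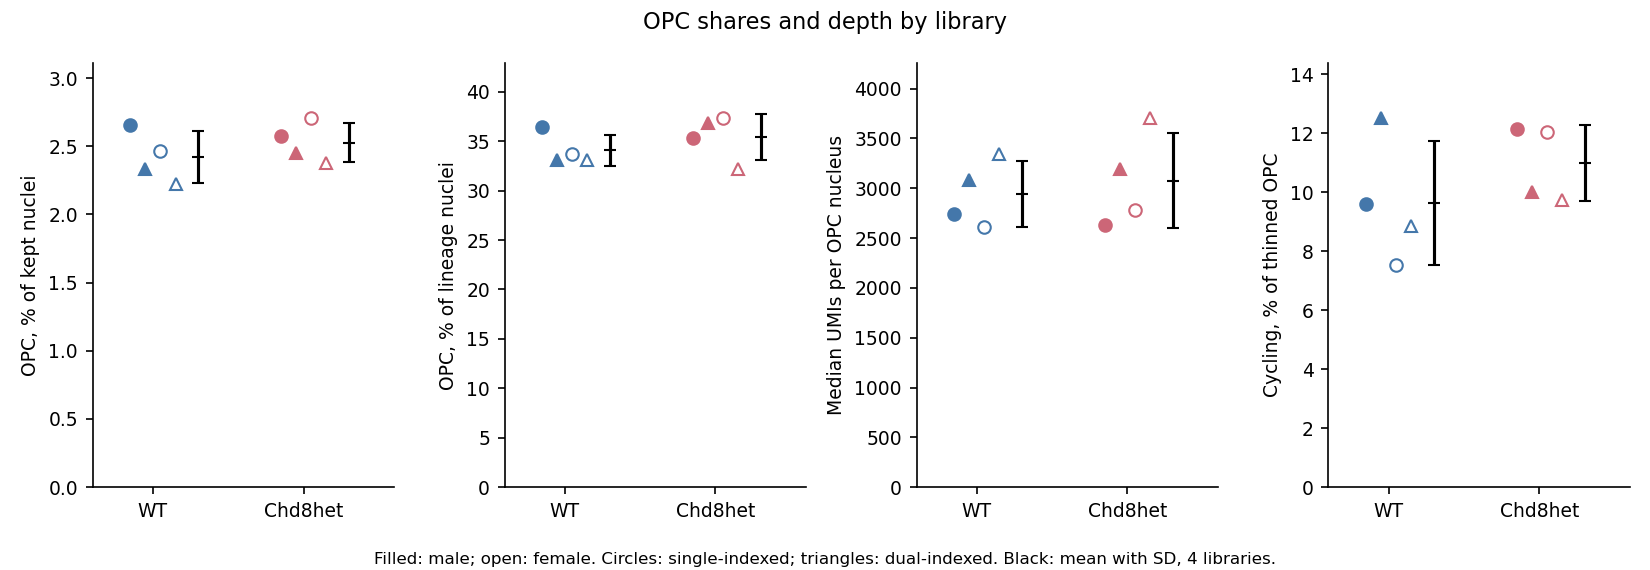
OPC as a percent of kept nuclei and of lineage nuclei, the median UMIs per OPC, and cycling OPC as a percent of thinned OPC, with 1 point per library and the mean with SD over 4 libraries. The genotypes overlap in all 4 panels, while single-indexed libraries (circles) lie above dual-indexed ones (triangles) in the first panel and below them in the third.

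Genotype was then compared across genes in the summed OPC counts. Levels from here on are in CPM after scaling between libraries (TMM), and log2 changes are Chd8het minus WT. Chd8 itself (chromosome 14, 52198151 to 52257780, GRCm38, minus strand) was at 88.9, 90.2, 85.1 and 72.5 CPM in WT OPC and 71.4, 99.1, 82.8 and 79.7 CPM in Chd8het OPC. The groups overlapped, and the log2 change was -0.01 (SE 0.16, edgeR quasi-likelihood, BH-adjusted p = 1.00). With the allele not described, a 3′ count need not see the lesion, so this value does not check the labels. WT and Chd8het therefore mean libraries so labelled.

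No gene was called for genotype at BH-adjusted p under 0.05, 0 of 9419 tested by the edgeR quasi-likelihood test in a model of sex and genotype. Of these, 289 had an unadjusted p under 0.05 (3.07%). DESeq2 called 0 with 95 genes under 0.05. With a term for each pair of the same sex and replicate number, edgeR called 0 with 498 genes under 0.05 (5.29%). Libraries may differ as animals do, and these p-values measure only the spread between these libraries. Without the filter on low counts, edgeR called 2 of 21898 genes (0.00913%), Il1rapl2 higher (0.00457%) and Itih5 lower (0.00457%). Il1rapl2 (interleukin receptor accessory family, a synaptic adhesion gene) was at 96.8, 72.8, 69.3 and 106.5 CPM in WT and 256, 237, 131 and 101 CPM in Chd8het. Of the Chd8het libraries 3 stood above all WT libraries, and Chd8het female 2 lay among them. The log2 change was 0.98 (SE 0.22, BH-adjusted p = 1.00 with the filter, 0.137 with pairs and 0.000133 without the filter, all edgeR). Il1rapl2 itself passed the filter. Its SE was 0.17 and its unadjusted p 6.09e-09 without the filter, against 0.22 and 0.000317 with it (edgeR). P-values without the filter followed a normal curve, so the small number of libraries did not widen them. Neurons held Il1rapl2 at 702 CPM against 130.2 CPM in OPC, with WT and Chd8het neuronal means of 701.8 and 701.7 CPM, and in mature oligodendrocytes the means were 58.3 and 101 CPM. The part of RNA from other cells in the OPC value was not tested. Itih5, a matrix-binding inhibitor subunit, was at 5.31, 57.2, 10.9 and 15.2 CPM in WT and 1.10, 3.27, 2.30 and 8.85 CPM in Chd8het. WT male 2 held the highest value and 72 UMIs were counted in all. WT male 2 also had the highest level of the fibroblast gene Dcn (17.3 CPM, at most 3.30 CPM in the other libraries), and astrocytes held Itih5 at 78.5 CPM against 12.5 CPM in OPC. Their part was not tested.

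Of the genes with the same direction in all 4 pairs, 620 up and 610 down (13.1% of those tested), the 10 of each direction with the smallest unadjusted p are described, with BH-adjusted p = 1.00 in edgeR for each. All 20 had no overlap between the 4 WT and 4 Chd8het libraries, as had 2.25% of all genes tested (1.19% higher and 1.06% lower in Chd8het), and choosing by p fixes that separation. Dync1i1, an intermediate chain of the dynein motor (chromosome 6, 5725639 to 6028039, GRCm38), was at 102, 109, 118.0 and 118 CPM in WT and 153, 176, 156 and 186 CPM in Chd8het. The log2 difference was 0.59 (SE 0.13). Cacng8, an auxiliary AMPA receptor subunit of the same family as the marker Cacng4, was at 43.8, 45.1, 40.1 and 50.3 CPM in WT and 76.9, 70.8, 69.0 and 74.6 CPM in Chd8het, a log2 difference of 0.70 (SE 0.17). Fgf13, an intracellular FGF that binds sodium channels, was at 109, 123, 116 and 137 CPM in WT and 158, 196, 147 and 217.5 CPM in Chd8het. Skil, a repressor of TGF-beta signalling, had means of 15.03 ± 2.19 and 29.4 ± 4.58 CPM, Lmo7 23.8 ± 3.23 and 42.6 ± 4.09, and the neuronal serpin gene Serpini1 51.2 ± 6.14 and 81.8 ± 18.4. Ube2cbp (log2 difference 1.20), Tmem47 (1.22), Pakap (0.84; 2 genes share this symbol, here ENSMUSG00000038729) and 4930587E11Rik (0.80; antisense within Cntn3) completed the upper 10. In neurons 7 of these 10 stood at a higher CPM than in OPC, Dync1i1 at 385 against 135 CPM, as did 3 of the 10 lower in Chd8het and 34.2% of all genes tested. The part of neuronal RNA was not tested. Within neurons the log2 difference between genotype means was 0.02 for Dync1i1, -0.05 for Cacng8 and 0.03 for Fgf13, and it was 0.34 for 4930587E11Rik, 0.33 for Skil, 0.28 for Tmem47, 0.28 for Ube2cbp and 0.20 for Lmo7, in the direction of OPC. In astrocytes that of 4930587E11Rik was 0.87.

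Among the 10 lower in Chd8het, Hnrnpa2b1, an RNA-binding protein of splicing and transport (chromosome 6, 51460932 to 51469894, GRCm38), was at 515, 525.5, 542 and 503 CPM in WT and 400.0, 427, 389 and 435 CPM in Chd8het. The log2 difference was -0.34 (SE 0.11). Ednrb, the endothelin receptor B (chromosome 14, 103814625 to 103844402, GRCm38), was at 118.0, 132, 124 and 139 CPM in WT and 85.7, 84.9, 110.4 and 102 CPM in Chd8het, a log2 difference of -0.42 (SE 0.14). Ednrb was at 1.77 CPM in neurons, 3.96 CPM in mature oligodendrocytes and 51.2 CPM in astrocytes, and in astrocytes the WT and Chd8het means were 44.7 and 57.6 CPM. Rbmx, another RNA-binding gene, had means of 85.5 ± 12.3 and 58.3 ± 9.16 CPM, the homeobox gene Pbx3 86.9 ± 14.95 and 57.6 ± 12.4, and the phosphodiesterase gene Pde7b 623 ± 48.9 and 490.3 ± 33.0. Pde7b differed by -0.29 on the log2 scale in neurons and -0.37 in mature oligodendrocytes too. Ranbp17 (log2 difference -0.41), Mtmr10 (-0.58), Zfp948 (-0.90), Urb1 (-1.11) and Epo (-0.49; the annotated gene overlaps several others) completed the lower 10. Each of the 20 kept its direction in both index types, which the choice of genes required.

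**Figure D4:**
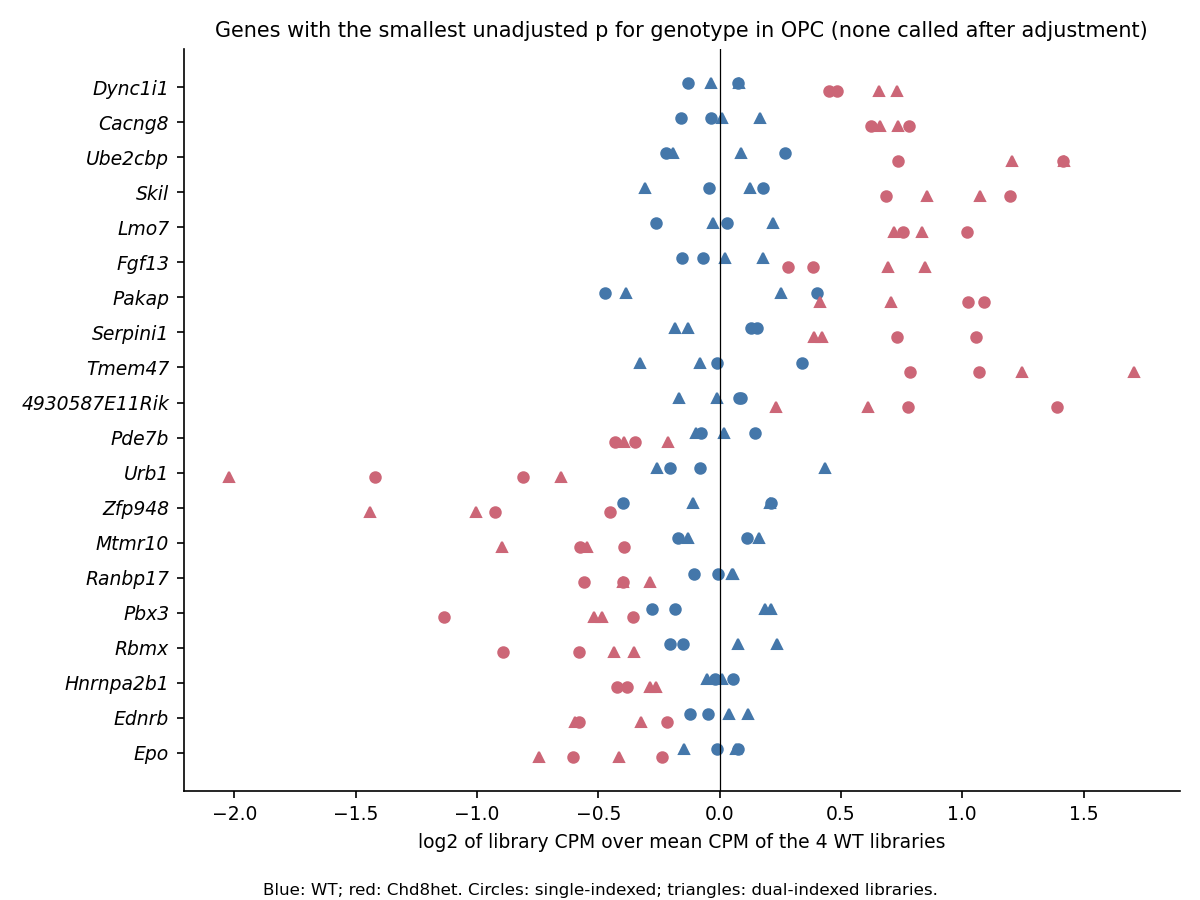
Level of the 20 named genes in each library as the log2 ratio to the mean of the 4 WT libraries. Red Chd8het points lie to the right of the blue WT points for 10 genes and to the left for 10, a separation fixed by the choice of genes, and none of these genes was called after adjustment.

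By list, no member was called for genotype in any of the 13 lists, in which all genes tested gave 0 calls (0%) too. Counting each gene once, 9 of 245 tested members (3.67%) were at unadjusted p under 0.05, near the 3.07% of all genes tested, so this count is not a result about the lists. Among them were Zeb2 (log2 difference -0.28) and Etv5 (0.41) of 24 lineage transcription factors tested, Grin2d (0.86) of 22 glutamate receptor genes, Robo2 (0.36) and Unc5c (-0.27) of 35 adhesion genes, Frmd4a (0.33) of 16 differentiation genes, Gjc3 (-0.43) of 11 myelin genes and Top2a (0.70) of 16 cell cycle genes. No member was at that level among 12 growth factor receptors, 16 matrix genes, 14 GABA genes, 22 ion channels, 16 Notch and Wnt genes or 28 chromatin regulators. The median log2 difference was 0.005 over all genes tested, lay between -0.085 and 0.07 in 12 lists, and was 0.433 over the 16 cell cycle genes. The cell cycle genes are read from the same few dividing nuclei, so they are not independent. Summed without Anln and Diaph3, they had WT and Chd8het means of 486 and 423 CPM in males and 214 and 470 CPM in females. The connexin gene Gjc3 was at 207, 194, 240 and 195 CPM in WT and 169, 107, 176 and 171 CPM in Chd8het, without overlap. Dner, a Notch ligand, was at 249, 264, 258 and 242 CPM in WT and 273, 284, 308 and 293 CPM in Chd8het, also without overlap. The 6 marker genes had log2 differences between -0.18 (Vcan) and 0.05 (Cspg4). The markers of mature oligodendrocytes had a median log2 difference of 0.288 over 5 tested genes, and their part in other differences was not tested.

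Whether the genotype difference in OPC departed from that in mature oligodendrocytes of the same animals was tested with library as a block. No gene was called, 0 of 11390 by edgeR (0%), with 499 at unadjusted p under 0.05, and DESeq2 called 0 with 124. Without the filter on low counts edgeR called 3, Nkain2 (difference 0.53), 4930473D10Rik (1.75) and the haemoglobin gene Hbb-bs (-3.03). Such a difference can lie in OPC or in mature oligodendrocytes. In OPC the genotypes overlapped for all 3. Hbb-bs was at 6.08 to 9.36 CPM in WT and 5.445 to 15.4 CPM in Chd8het OPC. Nkain2 was at 534 to 877 and 600.5 to 1140 CPM. 4930473D10Rik was at 4.86 to 19.1 and 16.3 to 58.2 CPM, highest in Chd8het female 2.

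Sex was compared in the same model. Of 9419 genes 6 were called (0.0637%, edgeR, BH-adjusted p under 0.05), 2 higher (0.0212%) and 4 lower (0.0425%) in females. Xist, the RNA that silences 1 X chromosome in females, was at 1225 to 1702 CPM in the 4 female and 0 to 1.73 CPM in the 4 male libraries, and its antisense partner Tsix at 1575 to 3066 and 0 to 2.18. The Y-linked genes Uty, Eif2s3y, Kdm5d and Ddx3y were at 132 to 153, 69.4 to 154, 34.7 to 65.0 and 35.2 to 56.6 CPM in males and at most 4.86 CPM in females. These levels match the sex label of each of the 8 libraries.

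The interaction of genotype and sex gave no call, 0 of 9419 by edgeR (0%) with 311 genes at unadjusted p under 0.05, and DESeq2 called 0 with 100. The cell cycle genes showed the following levels. Top2a was at 102 and 81.5 CPM in WT males, 108 and 64.3 in Chd8het males, 24.3 and 31.6 in WT females and 78.2 and 109 in Chd8het females. WT females lay below the other 6 libraries. The interaction, the female minus the male genotype difference, was 1.83 on the log2 scale (SE 0.42, unadjusted p = 0.000612, BH-adjusted p = 1.00, edgeR), and the adjusted p was 0.0237 without the filter on low counts. Top2a passed the filter, and p-values without the filter followed a normal curve here too. Cenpf, a kinetochore gene, was at 27.9 and 38.2 CPM in WT males, 30.8 and 17.4 in Chd8het males, 8.51 and 3.51 in WT females and 14.95 and 27.8 in Chd8het females. Kif23, a kinesin of cell division, was at 22.6 and 26.0, 25.3 and 6.53, 4.86 and 8.19, and 25.3 and 34.1 CPM in the same order. Summed over the 20 genes other than Anln and Diaph3, the level was 423 and 550 CPM in WT males, 535 and 310 in Chd8het males, 196 and 233 in WT females and 332 and 607 in Chd8het females. Both Chd8het females stood above both WT females for 11 of the 20 genes and for 9 of the 14 that were tested, as did 13.9% of all genes tested. Both Chd8het males stood above both WT males for 1 of the 20 and 0 of the 14, against 15.8% of all genes tested. The interaction was positive for 13 of 14 tested genes and 4 had an unadjusted p under 0.05, with a median of 1.47 against a median of 0 over all genes tested. These genes are read from the same few dividing nuclei, with 2 libraries per group, and were singled out after their values were seen.

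**Figure D5:**
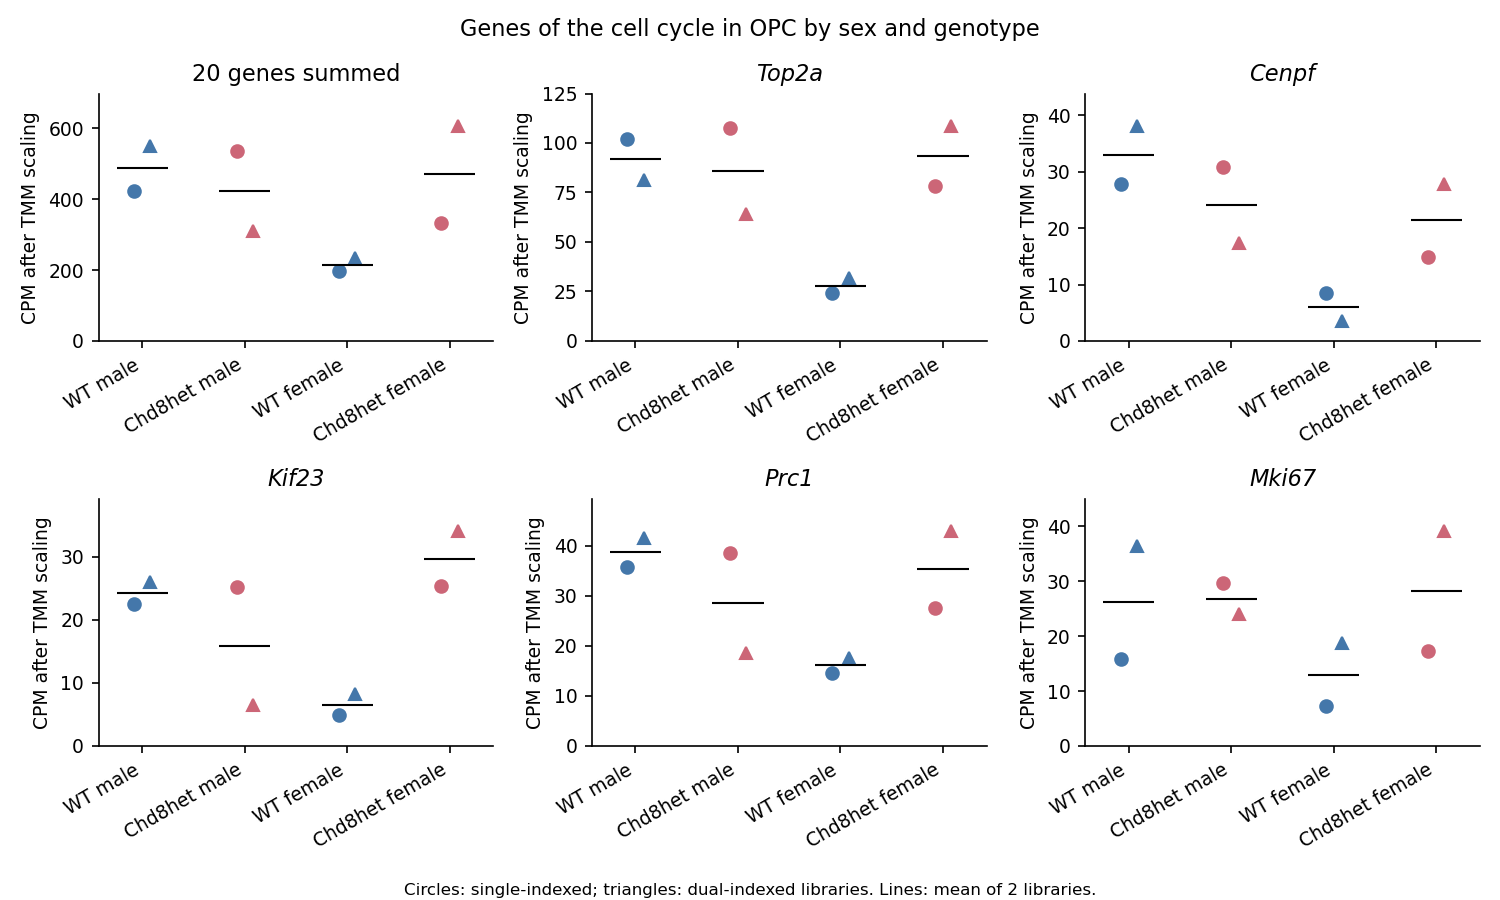
CPM after TMM scaling of 20 cell cycle genes summed and of 5 of them singly in OPC, with 1 point per library and a line at the mean of 2 libraries. For Top2a the 2 WT female libraries (24.3 and 31.6) lie below the other 6 libraries (64.3 to 109).

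Without the filter on low counts the interaction was called for 6 genes, Top2a and Zbtb16 with a positive and Lingo2, Cntnap2, Kcnip4 and Chrm3 with a negative value. Zbtb16, a zinc finger gene, was at 251 and 317 CPM in WT males, 173 and 191 in Chd8het males, 37.7 and 121 in WT females and 138 and 156 in Chd8het females. Lingo2, a leucine-rich repeat membrane gene, was at 415 and 590 CPM in WT males, 1007 and 938 in Chd8het males, 896 and 725 in WT females and 816 and 622 in Chd8het females. For Lingo2 both Chd8het males stood above both WT males, and the female groups overlapped. Cntnap2, a neurexin-family adhesion gene, was at 325 and 491, 765 and 803, 681 and 599, and 546 and 555 CPM in the same order. All 6 genes passed the filter, and none of them was called with it (BH-adjusted p = 1.00 for each in edgeR).

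Index type coincides with replicate number, so it cannot be told apart from other differences between replicates 1 and 2. More genes were called for it than for sex or genotype. Of 9419 genes 570 were called (6.05%, edgeR, BH-adjusted p under 0.05), 329 higher (3.49%) and 241 lower (2.56%) in dual-indexed libraries. Of the 238 tested genes of the fixed lists outside the OPC rule 32 were called (13.4%), 23 higher and 9 lower. Genes of the rule are given as levels only, since their counts chose the nuclei and depth differed between index types. Pdgfra was at 1135, 1069, 1010 and 1122 CPM in the 4 single-indexed libraries (WT male, WT female, Chd8het male, Chd8het female) and 944, 797, 775 and 857 CPM in the dual-indexed ones. Olig1 was at 67.6, 86.3, 81.3 and 82.8 CPM with single indexes and 29.5, 45.6, 39.2 and 37.9 with dual indexes, a log2 change of -1.05 (SE 0.17, BH-adjusted p = 0.000939, edgeR). Sox10 was at 325, 258, 264 and 307 CPM and 182, 205, 126 and 206 CPM (log2 change -0.70). The index types did not overlap for these 3 genes. The share of all genes without such overlap was not counted, so this is a description only. Pdgfra is part of the rule, and Olig1 and Sox10 were named because they were called. The other called lineage factors were Sox8 (-0.70), Etv4 (-0.67) and Hes1 (-1.18), lower in dual-indexed libraries, and Tcf4 (0.29), higher.

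The called members of the other lists moved in both directions. Of the growth factor receptors, Fgfr2 (0.32) and Ntrk2 (0.45) were higher in dual-indexed libraries. Of the matrix genes, Cspg5 was lower (-0.54) and Csgalnact1 higher (0.39). Of the glutamate receptor genes, Gria2 was lower (-0.36), while Gria1 (0.49), Grik1 (0.35), Grik3 (0.64), Grik4 (0.51) and Grid1 (0.44) were higher. Gabbr2 (0.60), Kcnd3 (0.33), Cacna1c (0.40) and Cacna1e (0.50) were higher and Hcn2 was lower (-0.86). All 6 called adhesion genes outside the rule were higher, Plxna4 (0.83), Dscaml1 (0.73), Ephb1 (0.69), Cdh13 (0.51), Ncam2 (0.28) and Lsamp (0.23), as were Maml2 (0.39) and Maml3 (0.79), coactivators of Notch. Of the differentiation genes outside the rule, Neu4 (-0.64) was lower and Itpr2 (0.42) and Frmd4a (0.41) higher. No member of the myelin, cell cycle, chromatin or cholesterol lists was called. Among the genes named here, Csgalnact1 lost its call in 15 of 16 alternatives, Kcnd3 in 14, Grik1 in 12, Gria1 in 11, Ncam2 in 10, and Fgfr2 and Hcn2 in 9 each. Among called genes with a mean of at least 20 CPM over the 8 libraries, the 6 highest and 6 lowest by log2 change were Gm26953 (1.53), St6galnac5 (1.49), 1700016P03Rik (1.39), Gm41764 (1.36), Gm43507 (1.34) and Prss48 (1.31), and Ptgfrn (-1.49), Sst (-1.28), Gm20752 (-1.20), Cops8 (-1.20), Ctsl (-1.19) and Hes1. Only St6galnac5, Gm41764, Prss48 and Ctsl of these 12 had means of at least 20 CPM in both index types. The other 8 reached that level through the index type in which they were higher, which favours large changes among them. Sst, a marker of interneurons, was at 48.6 ± 12.9 CPM in single-indexed and 19.4 ± 9.94 CPM in dual-indexed OPC. Of the other interneuron markers, Vip was at 20.6 and 12.2 CPM, Slc32a1 at 7.69 and 3.55, Pvalb at 4.50 and 2.78, Gad1 at 29.6 and 25.8, Gad2 at 5.32 and 5.40, and Dlx6os1 at 6.47 and 8.75. Erbb4 (2860 and 3082 CPM) and Adarb2 (1671 and 1712 CPM), both high in OPC, made up nearly all of the sum of the 9 markers, which ranged from 4093 to 5111 CPM and from 3627 to 5314 CPM. The part of interneuron RNA in these differences was not tested. The nuclear RNA Malat1 took 6.74% to 8.04% of OPC UMIs with single indexes and 4.04% to 5.58% with dual indexes. Gm42418, a locus that overlaps ribosomal RNA, took 0.103% to 0.156% with single indexes and 0.158% to 0.196% with dual indexes, and it was higher in Chd8het in each of the 4 pairs of the same sex and index type. The part of both in these differences was not tested.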

How the data were processed

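The deposited files hold UMI counts per gene and barcode for 8 libraries, made by the authors with STAR 2.7.9a, STARsolo and Cell Ranger on mm10, per the submitters' processing notes. Nuclei were isolated from all samples in parallel and captured with 10x 3′ chemistry, per the labels' protocols. For the annotation and the strand setting of counting, a statement is not given in the sources used here. Coordinates are from GENCODE M21 on GRCm38, matched for 32158 of 32285 gene IDs.

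Counts were summed over OPC per library. The members and gene lists were chosen with earlier results of these data known. edgeR 4.0.16 (R 4.3.3) was used with filterByExpr (minimum count 10), TMM scaling, a model of sex and genotype, the quasi-likelihood test and Benjamini-Hochberg adjustment (BH) at 0.05, index type being added as a term for its own test. DESeq2 1.42.0 was an alternative, as were other member rules, no filter on low counts, replicate blocks and leaving out each library. The edgeR fit was tested on simulated data. The shares called are of the changed genes that passed the count filter in the simulated data. Changed genes lost at the filter were not counted as missed. With a true log2 change of -1, given to 56 genes, it called 56.2% of those that passed. With a change of 1, given to 42 genes, it called 83.3%. With changes of -2 or 2 it called 100% of those that passed, and 8 unchanged genes were called. Genes with a log2 change near 1 can thus be missed. Shares were compared by exact permutation over libraries. Doublets were predicted with Scrublet in scanpy 1.11.5 at an expected rate of 0.8% per 1000 nuclei. Intervals are exact binomial (scipy 1.17.1) and cover counting error only.

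Genes named for genotype are the 10 higher and 10 lower with the smallest p among those with 1 direction in all 4 pairs, genes called in any interaction test are named up to 6 per test, and for index type the 6 highest and 6 lowest called genes. Per the labels, animals were matched by litter and sex, but the library that pairs with each is not stated. Libraries alike in sex and in replicate number deviated together from their genotype means (Pearson r across genes 0.322, 0.246, 0.277 and 0.169 for the pairs male 1, male 2, female 1 and female 2). They were taken as pairs, although replicate number also marks index type. WT and Chd8het libraries alike in index type but not in sex gave r of 0.073 to 0.157. Those alike in sex but not in index type gave -0.194 to -0.044. Shared sex and index type can raise r, so it cannot tell litter pairs apart from these. All other class comparisons are descriptions. Some genes of the lists are not reported here.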

Additional observations from a re-analysis of the deposited data

How the results depend on the processing

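The count of 0 genes called for genotype held under every alternative run (77 to 637 genes at unadjusted p under 0.05) except without the filter on low counts, where edgeR called 2. P-values of that fit and of the genotype by sex fit without the filter followed a normal curve. The small number of libraries thus did not widen them. Without the filter on low counts edgeR called 13 genes for sex, 6 for genotype by sex and 3 for genotype by class. The index type count was 308 under a stricter member rule, 163 by DESeq2, 686 without the filter on low counts and 242 to 519 with 1 library left out. It was 302 without WT male 1, 242 without Chd8het male 1, 331 without Chd8het female 1 and 340 without Chd8het female 2. The median UMIs per OPC differed between genotypes by -76.58 to 279.6 with 1 library left out, reversed at -76.58 without Chd8het female 2. With 1 library left out, the genotype difference was 0.0399 to 0.186 percentage points for the OPC share, 0.686 to 2.41 for the lineage share and 0.665 to 2.32 for the cycling share, whose lowest exact permutation p was 0.0571. On the full list the cycling difference was 2.65 points without predicted doublets, 2.44 under the stricter member rule, 2.99 without thinning and 0.617 when thinned to 4000 UMIs (exact permutation p 0.114, 0.229, 0.143 and 0.8286). The causes were not tested.

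With the pairs as a replicate block, edgeR called 0 genes for genotype (498 at unadjusted p under 0.05) and DESeq2 0 (77), and exact sign-flip p over 4 pairs was 0.25 for the OPC share, 0.50 for the lineage share, 0.375 for the median UMIs and 0.375 for the cycling share, where the smallest possible is 0.125. The block changed no call. Of 46 genes followed for index type, 24 lost their call in at least 1 alternative and 0 reversed.

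The OPC sums of 599176 to 940268 UMIs limit low genes.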
